A study of Mus musculus with 4 samples.

Results

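The CD4 and CD8 coreceptors and the factors that set or silence them were described in double-negative T cells. They are 8 genes chosen by name, and all 8 had a row among the 24768 genes used from the deposited table. They are the coreceptor genes Cd4 and Cd8b1, and 6 genes of factors that act on them, Zbtb7b, Patz1, Tox, Runx1, Runx3 and Cbfb. Of these, 7 passed the filter of a mean of at least 1 FPKM (fragments per kilobase of gene with library size taken out) over the 4 libraries and were tested. The eighth, Tox, did not pass. Cd8a, which encodes the other chain of CD8, is not analysed here.

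CD4 and CD8 are T cell surface proteins that bind MHC class II and class I molecules beside the T cell receptor and bring the kinase LCK to it. Double-negative T cells carry neither. In the thymus, RUNX1 and RUNX3, each bound to its partner CBFb, silence the Cd4 gene, RUNX3 mainly in the CD8 lineage, whereas the zinc finger factor ThPOK, the product of Zbtb7b, commits cells to the CD4 lineage and opposes RUNX-mediated silencing.

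RNA sequencing compared 2 libraries labelled Tbx21-KO with 2 libraries labelled WT, all from mouse cDNT cells given as T cells in the labels. Tbx21 encodes T-bet, a T-box transcription factor of type 1 lymphocytes. The design text speaks of a knockdown where the sample labels say KO, and the label is used here. Age, strain, the allele and the meaning of the c in cDNT are not stated in the labels. Nor do they say that the 2 libraries of a group came from separate animals or cultures, so p-values measure only how these libraries vary, which may be technical.

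Tbx21 itself was at 2.29 and 2.41 FPKM in Tbx21-KO 1 and 2 and at 13.2 and 11.7 FPKM in WT 1 and 2. Low values came in steps of 1 read, which implied totals of 23342622 and 24032684 reads in Tbx21-KO and 24966905 and 24129853 reads in WT. Of the genes that mark T cells, Cd3e and Trac were at 39.8 FPKM or more in every library. The Tbx21-KO libraries also held transcripts of other cell types. The summed FPKM of 8 granulocyte markers was 9782 and 10092 in Tbx21-KO, against 4.43 and 6.75 in WT. Each of these 8 genes was above 0 in both Tbx21-KO libraries, and Csf3r was listed at 0 in WT 1. The summed FPKM of 13 T cell genes was 856 and 885 in Tbx21-KO, against 1271 and 1367 in WT. These 13 genes did not all fall. In the test described below 8 were lower, 4 were not called (Cd3g, Lat, Zap70 and Cd6) and 1, Cd5, was higher. Among all tested genes 23.0% were lower and 30.1% higher. The granulocyte sum and the T cell sum both separated the groups. Their part in the differences below was not tested beyond a second scaling. There each library was divided by a factor proportional to its geometric mean level of the 13 T cell genes. That scaling is called T cell list scaling here. It raised the median log2 fold change of all tested genes by 0.37. In such bulk samples fewer cells of a type and less RNA per cell cannot be told apart.

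Differences were tested with limma on log2(FPKM + 1) across 11013 genes, and a gene is called higher or lower where its Benjamini-Hochberg adjusted p is under 0.05. Of the 7 tested genes of the coreceptor group, 4 were higher in Tbx21-KO (Runx1, Zbtb7b, Patz1 and Runx3), 1 was lower (Cbfb) and 2 were not called (Cd4 and Cd8b1). Calls were common throughout these data. Across all tested genes 30.1% were called higher and 23.0% lower, 53.1% together, so the count of 5 calls in 7 genes is no result about the group. Scaling to the T cell list called 6 of the 7 higher and none lower, against 70.0% higher, 4.98% lower and 75.0% called among all tested genes. The sizes of the changes set the genes apart from each other. Only 5.18% and 7.45% of all tested genes had a larger absolute log2 fold change than Runx1 and Zbtb7b, while 58.1% had a larger one than Runx3 and 76.0% a larger one than Cd4.

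**Figure D1:**
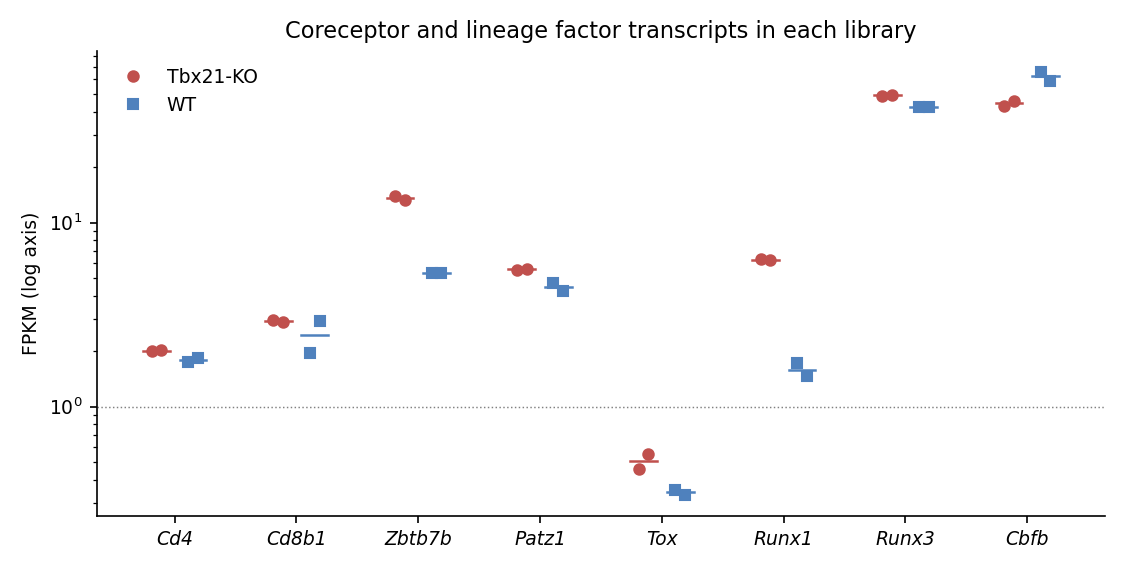
FPKM on a log axis of the 8 genes in each library. Circles are the 2 Tbx21-KO libraries and squares the 2 WT libraries of each gene, short lines are group means, and the dotted line marks 1 FPKM, the minimum for testing as a mean over the 4 libraries. Runx1 and Zbtb7b lie well above WT in both Tbx21-KO libraries, Cbfb lies below WT, and Tox stays under 1 FPKM in every library.

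Both coreceptor genes had reads in every library, at low levels. Cd4 (ENSMUSG00000023274, on chromosome 6 of GRCm38, 124864692 to 124888221) was at 2.01 and 2.02 FPKM in Tbx21-KO 1 and 2, against 1.74 and 1.84 FPKM in WT 1 and 2. Both Tbx21-KO libraries were slightly above both WT libraries, by less than counting error. The values correspond to 189 and 196 reads in Tbx21-KO and 175 and 179 reads in WT, and the exact Poisson 95% intervals overlapped, at 1.73 to 2.32 FPKM in Tbx21-KO 1 and 1.49 to 2.02 FPKM in WT 1. Intervals cover counting error only, since these reads carry no molecular identifiers in the files. The log2 fold change was 0.11 (SE 0.08, limma adjusted p = 0.292). It turned to -0.21 after quantile normalization and was called higher only with T cell list scaling, at 0.40 (adjusted p = 0.00908).

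Cd8b1 (ENSMUSG00000053044, chromosome 6, 71322788 to 71337494) encodes the CD8 beta chain, which is restricted to T cells. It was at 2.95 and 2.89 FPKM in Tbx21-KO 1 and 2, against 1.94 and 2.93 FPKM in WT 1 and 2. The 2 WT libraries disagreed, one lying with the Tbx21-KO libraries and one below them. They held 72 and 105 reads, a difference between these 2 libraries that passed an exact binomial test on their reads (two-sided p = 0.00833), whereas the Tbx21-KO libraries held 102 and 103 reads. The log2 fold change was 0.20 (SE 0.15, limma adjusted p = 0.31). WT 1 and WT 2 decided its size, which was -0.01 without WT 1 and 0.41, with an adjusted p of 0.0341, without WT 2. It was -0.08 after quantile normalization, and with T cell list scaling it was called higher, at 0.52 (adjusted p = 0.0131).

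A ratio of 2 genes within a library is unchanged when the library is divided by 1 factor. The level of Cd4 was 0.0499 and 0.0508 of that of Cd3e, a chain of the CD3 complex, in Tbx21-KO 1 and 2, against 0.0304 and 0.0328 in WT 1 and 2. For Cd8b1 the same ratio was 0.0733 and 0.0726 in Tbx21-KO, against 0.0340 and 0.0523 in WT. Both coreceptor genes were therefore well under the level of Cd3e in each library, and in both Tbx21-KO libraries their ratio to it lay above that of either WT library. Cd3e itself fell, to 40.2 and 39.8 FPKM in Tbx21-KO against 57.2 and 56.1 FPKM in WT. It was 1 of the 8 lower genes among the 13 T cell genes, and 4 were not called. One of these 4, Lat, was at 68.6 and 67.8 FPKM in Tbx21-KO against 64.2 and 65.0 FPKM in WT. The size of the differences in these ratios therefore depends on Cd3e as the reference, and ratios to the other T cell genes were not tested. The ratio of Cd4 to Cd8b1 did not separate the groups, at 0.682 and 0.700 in Tbx21-KO and 0.894 and 0.627 in WT. In all, 8 ratios between these genes or to Cd3e were tested, and with 2 libraries against 2 an exact two-sided permutation test cannot go below p = 0.33. The 7 that separated the groups had p = 0.333 (0.381 after Benjamini-Hochberg adjustment over the 8), and Cd4 over Cd8b1 had p = 1, all by that exact test. Some mouse dendritic cells also express Cd4. Of 8 dendritic cell markers with a row, 6 were tested, of which 4 were higher in Tbx21-KO (Batf3, H2-Aa, H2-Ab1 and Cd74) and 2 were not called (Itgax and Xcr1, with log2 fold changes of -0.22 and -0.29). After quantile normalization these last 2 were called lower. Among all tested genes 30.1% were called higher before that normalization. The summed FPKM of the 8 was 133 and 139 in Tbx21-KO, against 47.2 and 51.6 in WT, and the untested Flt3 and Zbtb46 were at or under 0.297 FPKM in every library. The part of such cells in the Cd4 values was not tested.

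Zbtb7b (ENSMUSG00000028042, chromosome 3, 89377644 to 89394776), the gene of the CD4 lineage factor ThPOK, was at 14.0 and 13.3 FPKM in Tbx21-KO 1 and 2, against 5.30 and 5.34 FPKM in WT 1 and 2. The groups did not overlap, and the gap between them was many times the spread within either. Expressed in reads, this was 1826 and 1785 in Tbx21-KO and 740 and 720 in WT. Zbtb7b rose 2.56-fold, and its log2 fold change was 1.21 (SE 0.05, limma adjusted p = 0.000108). It was called higher under each of the 15 alternatives, and the change was 1.10 after quantile normalization and 1.60 with T cell list scaling. Relative to Cd3e, Zbtb7b was at 0.348 and 0.334 in Tbx21-KO and at 0.0928 and 0.0952 in WT. Besides CD4 T cells, invariant natural killer T cells and some gamma delta T cells are known to use ThPOK. Of 5 gamma delta T cell genes, 4 were higher in Tbx21-KO and 1 was lower, against 30.1% higher and 23.0% lower of all tested genes. With T cell list scaling all 5 were higher, against 70.0% of all tested genes. The summed FPKM of these 5 genes was 621 and 639 in Tbx21-KO, against 480 and 482 in WT. Sox13, a factor of such cells, was at 10.7 and 10.3 FPKM in Tbx21-KO, against 0.845 and 0.961 FPKM in WT, and the constant segment Trdc at 46.7 and 49.7 FPKM in Tbx21-KO, against 35.7 and 34.5 FPKM in WT. The lower gene was Tcrg-C2, another constant segment, with a log2 fold change of -0.16. The WT mean of Sox13 was 0.903 FPKM, so only its Tbx21-KO values brought it past the filter. The part of gamma delta T cells in the rise of Zbtb7b was not tested.

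Patz1 (ENSMUSG00000020453, chromosome 11, 3288874 to 3309083) encodes MAZR, a zinc finger factor that binds the Cd8 locus and helps to repress Zbtb7b in the CD8 lineage. Patz1 was at 5.56 and 5.57 FPKM in Tbx21-KO 1 and 2, against 4.68 and 4.23 FPKM in WT 1 and 2. Its rise was small, its log2 fold change being 0.27 (SE 0.07, limma adjusted p = 0.0253), and its call was lost in 5 of 15 alternatives. The change was 0.08 (adjusted p = 0.357) after quantile normalization, and no call was made without a filter, without WT 2 or without either Tbx21-KO library, where adjusted p ran up to 0.107. Exons annotated for Gm12592, on the other strand, share 605 bases with those of Patz1. The sources used here do not state whether counting used strand, but Gm12592 was at 0.131 FPKM or less in every library. Gm11944, on the same strand as Patz1, shares 88 exon bases with it. It was at 1.72 and 0.906 FPKM in Tbx21-KO 1 and 2, against 0.918 and 0.285 FPKM in WT 1 and 2. The part of this overlap in the Patz1 values was not tested.

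Tox (ENSMUSG00000041272, chromosome 4, 6686353 to 6991557) encodes a nuclear factor that CD4 lineage development in the thymus needs and that chronically stimulated T cells express. It was the lowest of the 8 genes in each group, at 0.456 and 0.552 FPKM in Tbx21-KO 1 and 2, against 0.353 and 0.332 FPKM in WT 1 and 2. These are 81 and 101 reads in Tbx21-KO and 67 and 61 reads in WT. The exact Poisson 95% interval of Tbx21-KO 1 (0.362 to 0.567 FPKM) overlapped those of WT 1 (0.273 to 0.448 FPKM) and WT 2 (0.254 to 0.427 FPKM). That of Tbx21-KO 2 (0.45 to 0.671 FPKM) lay above both, though only just above that of WT 1. Only without a filter on low values was Tox tested, with a log2 fold change of 0.16 that was not called (limma adjusted p = 0.18).

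Runx1 (ENSMUSG00000022952, chromosome 16, 92601466 to 92826149) had the largest log2 fold change of the 7 tested genes, except with a pseudocount of 5, where Zbtb7b (0.85) was above it. RUNX1 silences Cd4 in double-negative thymocytes and is also a factor of blood stem cells and myeloid progenitors. Its gene was at 6.34 and 6.26 FPKM in Tbx21-KO 1 and 2, against 1.71 and 1.46 FPKM in WT 1 and 2. Both Tbx21-KO libraries were far above both WT libraries. Runx1 rose 3.97-fold, and the log2 fold change after adding the pseudocount of 1, which makes changes of low genes look smaller, was 1.50 (SE 0.08, limma adjusted p = 0.000204). With a pseudocount of 0.1 it was 1.93, and with a pseudocount of 5 it was 0.78. The gene was called higher under each of the 14 alternatives in which it was tested. The same libraries differed in granulocyte transcripts, with Mpo, of granulocyte precursors, at 118 and 111 FPKM in Tbx21-KO, against 0.140 and 0.145 FPKM in WT. Their part in the rise of Runx1 was not tested.

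Runx3 (ENSMUSG00000070691, chromosome 4, 135120652 to 135177990), the main RUNX gene of CD8 and other cytotoxic T cells, was abundant in both groups. It was at 48.7 and 49.5 FPKM in Tbx21-KO 1 and 2, against 42.7 and 42.2 FPKM in WT 1 and 2. The groups did not overlap, and replicates lay within 1 FPKM of each other. The rise was 1.16-fold, and its log2 fold change 0.21 (SE 0.04, limma adjusted p = 0.00831). It was called in every alternative except the fit without Tbx21-KO 2 (adjusted p = 0.0565), and T cell list scaling raised it to 0.63. The ratio of Zbtb7b to Runx3, the factors that favour opposite lineages in the thymus, was 0.287 and 0.268 in Tbx21-KO, against 0.124 and 0.126 in WT. That is a difference of 1.15 on the log2 scale, which dividing a library by 1 factor leaves unchanged.

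Cbfb (ENSMUSG00000031885, chromosome 8, 105170674 to 105217989) encodes CBFb, which binds no DNA itself and stabilises the binding of each RUNX protein. It was the only gene of the group that fell. It was at 43.3 and 46.1 FPKM in Tbx21-KO 1 and 2, against 66.0 and 58.9 FPKM in WT 1 and 2. The groups did not overlap, although in each group the 2 libraries differed from each other by more than counting error. WT held 5732 and 4947 reads (exact binomial two-sided p = 5.31e-09). Tbx21-KO held 3516 and 3852 reads (exact binomial two-sided p = 0.00789). The log2 fold change was -0.47 (SE 0.07, limma adjusted p = 0.00446), and Cbfb fell to 71.5% of its WT mean. With T cell list scaling the change was -0.04 (adjusted p = 0.661), so a fall relative to the T cell genes was not called.

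Among the transcripts of the RUNX family itself, the makeup differed between the groups. Runx1, Runx2 and Runx3 together had 66.7 and 66.5 FPKM in Tbx21-KO, against 63.1 and 62.5 FPKM in WT. Runx1 made up 9.51% and 9.41% of that sum in Tbx21-KO, against 2.71% and 2.34% in WT. The share of Runx2, known above all from bone and added here as the remaining RUNX gene, was 17.4% and 16.2% in Tbx21-KO, against 29.7% and 30.1% in WT. Runx3 made up most of the sum in every library, 73.1% and 74.4% in Tbx21-KO and 67.6% in each WT library. Cbfb relative to Runx1 plus Runx3, one of the 8 ratios, was 0.786 and 0.826 in Tbx21-KO, against 1.49 and 1.35 in WT. Relative to the sum with Runx2, a ratio outside those 8 and not tested, it was 0.649 and 0.693 in Tbx21-KO, against 1.04 and 0.942 in WT. The ratio of Runx3 to Runx1 was 7.69 and 7.91 in Tbx21-KO, against 24.9 and 28.9 in WT.

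**Figure D2:**
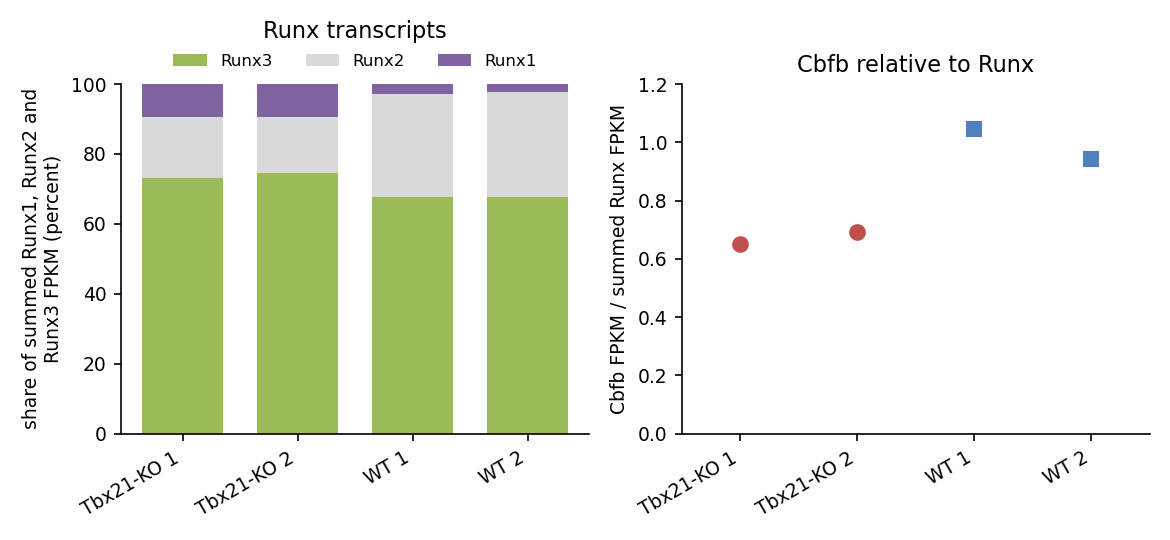
Makeup of the RUNX transcripts by library. Left, stacked bars give the share in percent of Runx3, Runx2 and Runx1 in their summed FPKM, with Runx1 at 9.51% and 9.41% in the Tbx21-KO libraries and 2.71% and 2.34% in the WT libraries. Right, points give Cbfb FPKM divided by the summed Runx FPKM, which lies below 0.7 in both Tbx21-KO libraries and above 0.9 in both WT libraries.

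The start regions of these genes are shown because the RUNX genes moved in different directions while sharing a sequence there. RefSeq windows of 300 bases, from 250 before to 50 after a start site (build GRCm38.p6), were at hand for 5 of the 8 genes, 9 windows in all: Zbtb7b, Patz1, Runx1, Runx3 and Cbfb. The RUNX core TGTGGT, or ACCACA on the other strand, was searched on both strands and is in capitals below. It occurred in 3 of the 9 windows and in 16.8% of all 32851 windows. They are the outer windows of Runx1 and Runx3 and the inner window of Zbtb7b, each read 5′ to 3′ on the gene's strand.
Runx1, chr16:92826025-92826324, minus strand: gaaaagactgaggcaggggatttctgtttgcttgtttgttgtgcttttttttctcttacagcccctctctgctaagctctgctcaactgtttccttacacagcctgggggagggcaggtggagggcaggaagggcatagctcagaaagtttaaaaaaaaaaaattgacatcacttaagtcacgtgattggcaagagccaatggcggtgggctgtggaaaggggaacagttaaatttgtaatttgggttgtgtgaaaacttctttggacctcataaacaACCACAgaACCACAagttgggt
Runx3, chr4:135120395-135120694, plus strand: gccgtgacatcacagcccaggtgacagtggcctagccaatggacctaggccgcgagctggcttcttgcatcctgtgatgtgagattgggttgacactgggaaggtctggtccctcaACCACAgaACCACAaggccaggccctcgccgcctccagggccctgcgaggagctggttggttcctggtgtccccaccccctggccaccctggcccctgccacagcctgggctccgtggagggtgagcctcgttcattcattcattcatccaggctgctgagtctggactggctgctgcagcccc
Zbtb7b, chr3:89387622-89387921, minus strand: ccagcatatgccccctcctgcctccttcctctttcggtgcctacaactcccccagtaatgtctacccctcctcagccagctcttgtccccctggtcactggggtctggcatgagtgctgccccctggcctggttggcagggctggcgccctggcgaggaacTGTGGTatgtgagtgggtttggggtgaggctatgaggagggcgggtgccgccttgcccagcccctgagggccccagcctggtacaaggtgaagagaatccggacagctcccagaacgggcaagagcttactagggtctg
The windows of Runx1 and Runx3 each hold the core as a pair, 2 bases apart, and that of Zbtb7b holds 1 copy.

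With the pair, Runx1 and Runx3 share a run of 18 bases, and a window of Runx2 holds the same 18 letters.
Runx1, chr16:92826031-92826048, minus strand: caACCACAgaACCACAag
Runx2, chr17:44814589-44814606, minus strand: caACCACAgaACCACAag
Runx3, chr4:135120509-135120526, plus strand: caACCACAgaACCACAag
A pair of cores with this spacing on 1 strand was found in 7 of the 32851 windows (0.0213%), and 1 of the remaining 4, that of Gm16225, overlaps the Runx3 window. The 3 genes share the pair, and Runx1 rose 3.97-fold, Runx3 rose 1.16-fold and Runx2 fell, by 0.70 on the log2 scale (SE 0.05, limma adjusted p = 0.000544). FPKM values sum over a whole gene and do not show which start site was used. The T-box core GGTGTG, or CACACC on the other strand, was found in 19.0% of all windows and in none of these 9, which says only that these letters are not in these 300 bases. A match of letters is not a binding site.

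The order of the levels differed between the groups. In Tbx21-KO it ran from Runx3 (mean 49.1 FPKM) through Cbfb (44.7), Zbtb7b (13.6), Runx1 (6.30), Patz1 (5.57), Cd8b1 (2.92) and Cd4 (2.02) to Tox (0.504). In WT it ran from Cbfb (mean 62.4 FPKM) through Runx3 (42.5), Zbtb7b (5.32), Patz1 (4.46), Cd8b1 (2.44), Cd4 (1.79) and Runx1 (1.59) to Tox (0.342). Every gene was above the next one in both libraries of its group, but several steps were within counting error, in that the exact Poisson 95% intervals of neighbours overlapped. These were Zbtb7b to Patz1, Cd8b1 to Cd4 and Cd4 to Runx1 in WT 1, Cd4 to Runx1 in WT 2, and Runx1 to Patz1 in Tbx21-KO 2. In WT 1 the intervals were 1.52 to 2.45 FPKM for Cd8b1, 1.49 to 2.02 FPKM for Cd4 and, less exactly since its reads did not come out whole, 1.57 to 1.87 FPKM for Runx1. By group mean Runx1 stood above Patz1, Cd8b1 and Cd4 in Tbx21-KO and below all 3 in WT.

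**Figure D3:**
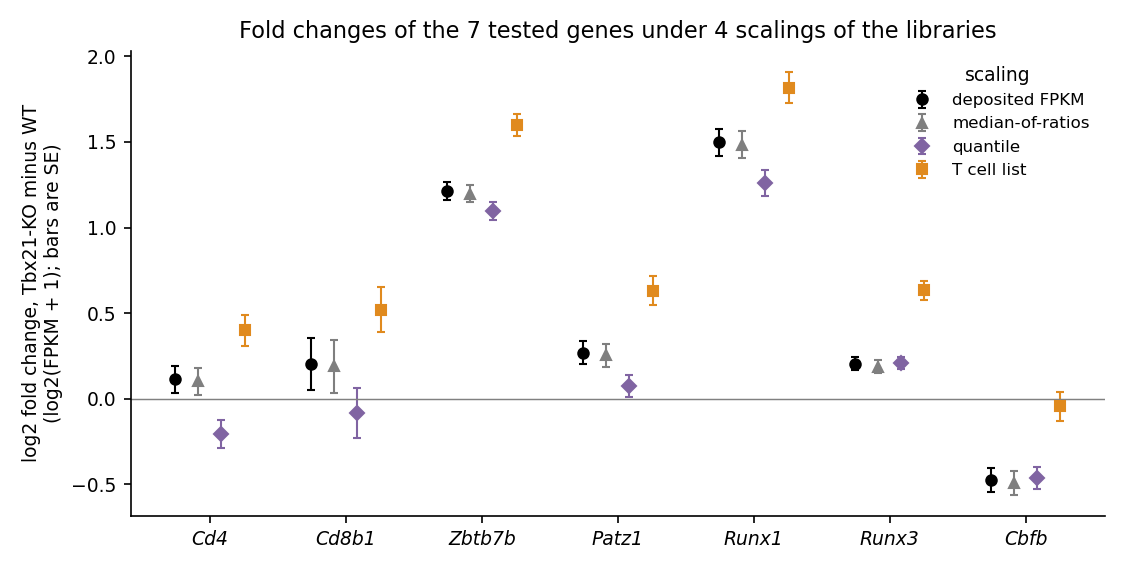
Log2 fold change (Tbx21-KO minus WT, from log2(FPKM + 1) values) of the 7 tested genes under 4 scalings of the libraries, with bars for the SE. Runx1 and Zbtb7b stay at 1.10 or more under each scaling, Cbfb comes to -0.04 with T cell list scaling, and Cd4 and Cd8b1 lie on both sides of 0.

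By the distance of log2(FPKM + 1) values over the 4 libraries, the tested gene closest to Zbtb7b was Ikbke (distance 0.0874), at 13.6 and 12.6 FPKM in Tbx21-KO and 5.19 and 5.21 FPKM in WT. The closest to Runx1 was Car13 (0.0764), to Runx3 Maea (0.0756), to Cbfb Cct6a (0.115), to Patz1 Gm43300 (0.0318), to Cd4 Mterf4 (0.0566) and to Cd8b1 Fancb (0.184). With 4 libraries such likeness is a description of level and direction.

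Genes known to work with the group were taken from 5 lists. Beside their counts stand 30.1% called higher and 23.0% lower among all tested genes, or 70.0% and 4.98% with T cell list scaling. In the list of the RUNX complex, 9 of 10 genes with a row were tested, 4 higher and 3 lower (6 and 2 with T cell list scaling). Their median log2 fold change was 0.08, beside 0.04 for all tested genes. These counts include Runx1 and Runx3, both higher, and Cbfb, which was lower and not called with T cell list scaling. Besides the genes already given, Cbfa2t3, a corepressor whose WT mean of 0.596 FPKM was below the filter value, rose by 0.82. Aes, a member of the TLE family, rose by 0.28. Tle4, a RUNX corepressor of that family, fell by 1.28, to 5.11 and 5.13 FPKM in Tbx21-KO against 14.1 and 13.6 FPKM in WT. The direction of Cbfa2t3, Aes, Tle4 and Runx2 was the same with T cell list scaling and after quantile normalization. Tle1, also of the TLE family and named here with its value known, was the gene that did not pass the filter. It was at 1.69 and 1.49 FPKM in Tbx21-KO, against 0.239 and 0.281 FPKM in WT.

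Of 8 tested genes in the list of relatives of Zbtb7b, Patz1 and Tox, 3 were higher and 1 lower (7 and none with T cell list scaling). These counts include Zbtb7b and Patz1 themselves, both among the 3 higher, and Zbtb16 was the only other higher gene. Zbtb16, which encodes PLZF, the factor of innate-like T cells, rose most, to 6.73 and 6.10 FPKM in Tbx21-KO against 0.591 and 0.502 FPKM in WT, which is 2.26 higher on the log2 scale (SE 0.09, limma adjusted p = 8.22e-05). Its WT mean was under 1 FPKM, so only its Tbx21-KO values brought it past the filter. Zbtb17, which encodes MIZ-1, fell by 0.29, a direction that turned with T cell list scaling (0.12, not called). Zbtb7a, the closest relative of Zbtb7b named here with its value known, had a log2 fold change of 0.12 and was not called. At 19.3 and 20.02 FPKM in Tbx21-KO and 19.3 and 16.7 FPKM in WT, it was above Zbtb7b in every library.

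Other regulators of the CD4 and CD8 choice moved both ways, 10 higher and 9 lower of 22 tested (15 and 4 with T cell list scaling), with a median of -0.05. Il7r, the interleukin-7 receptor chain, rose most, to 45.0 and 42.5 FPKM in Tbx21-KO against 5.52 and 5.70 FPKM in WT, a log2 fold change of 2.76. Myb, which promotes Gata3 and the CD4 fate in thymocytes, rose by 1.54, and Gfi1, a repressor in T cells and granulocyte precursors, by 1.08. Id3, an inhibitor of E proteins, fell by 1.05, Ikzf3, of the Ikaros family, by 0.85 and Tcf12, the gene of the E protein HEB, by 0.73. These 6 genes kept their direction under each scaling. Gata3, the CD4 lineage factor that acts ahead of ThPOK in the thymus, was not called, at 6.91 and 6.29 FPKM in Tbx21-KO and 7.43 and 7.19 FPKM in WT, and is named here with its value known.

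Chromatin regulators of the coreceptor loci had log2 fold changes between -0.51 and 0.47. Of 16 tested, 2 were higher, 6 lower and 8 not called, with a median of -0.10. With T cell list scaling 12 were higher and none lower, beside 70.0% higher and 4.98% lower among all tested genes. The falls therefore have no settled direction. Ncor1, a corepressor that thymocytes use, rose by 0.47 and Tet2, a methylcytosine oxidase, by 0.43, both also under each scaling. Dnmt3a, a DNA methyltransferase, Smarcc1, a subunit of the BAF remodelling complex, and Tet3 fell by 0.51, 0.44 and 0.41, and none of these 3 was called with T cell list scaling, at -0.15, -0.03 and -0.03.

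Among the partners of the coreceptors and genes of the helper and CD8 programmes, 6 of 14 tested genes were higher and 8 lower. Their median was -0.84, and the counts were the same with T cell list scaling. Cd40lg, the CD40 ligand of helper T cells, rose to 10.4 and 7.56 FPKM in Tbx21-KO against 1.15 and 1.13 FPKM in WT, a log2 fold change of 2.20. Itgae, which encodes the CD103 integrin chain and is a RUNX3 target in CD8 T cells, rose by 1.59 and Ccr7, the receptor for lymph node homing, by 0.66. Lck, the kinase that binds the tails of CD4 and CD8, fell to 71.6 and 75.8 FPKM in Tbx21-KO against 178.6 and 171.6 FPKM in WT, a log2 fold change of -1.24. Cd160, a receptor of cytotoxic lymphocytes, and Cd28, the costimulatory receptor, fell by 2.08 and 1.41. Lck and Cd28 are also among the 13 genes of the T cell list scaling, under which they still fell, by 0.80 and 1.00.

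**Figure D4:**
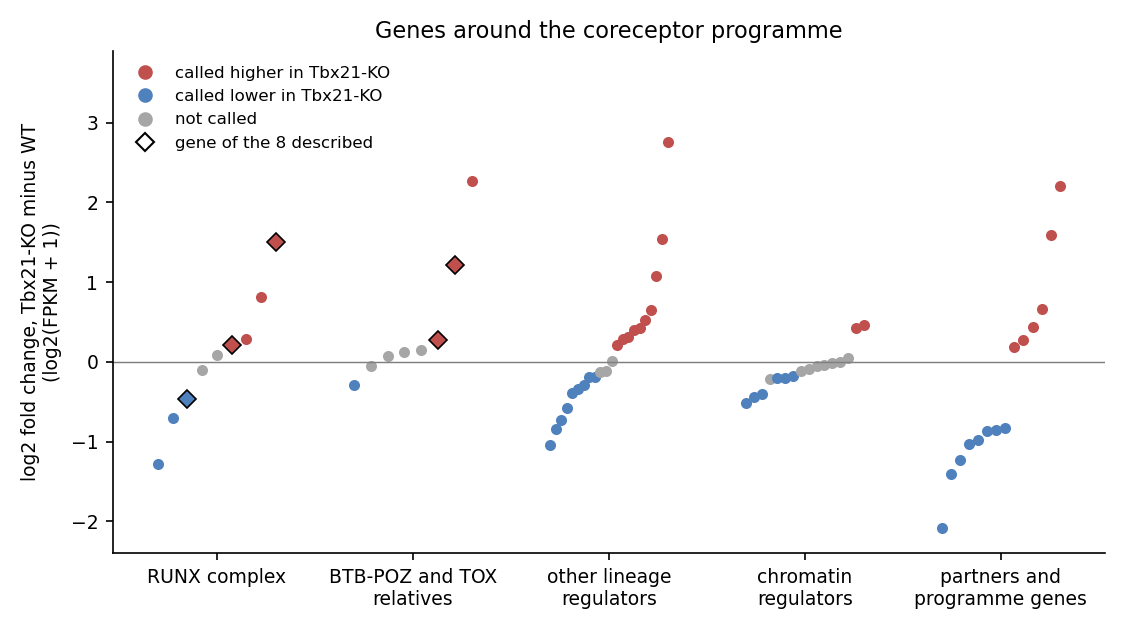
Log2 fold change (Tbx21-KO minus WT, from log2(FPKM + 1) values) of each tested gene in the 5 lists, in rising order within a list. Colour gives the call of the limma test and diamonds mark genes of the coreceptor group, of which Runx1 and Zbtb7b stand among the higher genes of their lists and Cbfb among the lower ones.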

How the data were processed

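RNA of 2 Tbx21-KO and 2 WT libraries was measured by RNA sequencing. The deposited table holds FPKM values that the authors computed per gene and library. The submitters' processing notes name the builds GRCm38 and mm10. Aligner, counter and strand setting were not given in the sources used here. Of 24769 rows, 1 that breaks off inside a value was left out. Ensembl IDs were matched to GENCODE M21 (24720 of 24768), whose summed exon lengths gave whole reads for 96.8% to 97.3% of values under 20 reads, within 0.1 read. For Runx1 the reads were not whole, so none are printed. Both pairs of replicates varied beyond counting noise (median chi-square per gene 1.46 for WT and 1.31 for Tbx21-KO, against 0.45) and were kept as replicates.

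Values were tested as log2(FPKM + 1) in the 11013 genes with a mean of at least 1 FPKM, with limma 3.58.1 (R 4.3.3) with an intensity trend and Benjamini-Hochberg adjustment over all of them, and the steps were tested on simulated data. Fold changes are Tbx21-KO minus WT. Alternatives changed the pseudocount, filter, scaling, variance trend, replicate block or libraries, or used voom on recovered reads. Genes and lists were chosen with earlier results of these data known, and in each list the 3 largest called rises and falls outside the 8 genes are named, beside genes said to be named after their values.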

Additional observations from a re-analysis of the deposited data

How the results depend on the processing

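Runx1 and Zbtb7b were called higher, and Tbx21 lower, under every alternative in which they were tested, with log2 fold changes of 0.78 to 1.99 for Runx1 and 0.85 to 1.60 for Zbtb7b. Of all tested genes, 3315 were called higher and 2531 lower. With T cell list scaling 7713 were higher and 548 lower, after quantile normalization 3801 were lower, and at a mean of at least 5 FPKM, where fewer genes were tested, 2018 were higher. Of the 8 genes, 4 were called higher and 1 lower, and with T cell list scaling 0 were lower. Leaving out 1 library gave 2 to 4 genes called higher, the lowest count without Tbx21-KO 2, where Runx3 and Patz1 were not called. Cd4 and Cd8b1 turned to -0.21 and -0.083 after quantile normalization, and Cd8b1 was at -0.0059 without WT 1 and at 0.41 without WT 2; the cause was not tested. The difference of the log2 ratio of Cd4 to Cd8b1, Tbx21-KO minus WT, was -0.12 and ranged from -0.37 to 0.14 without 1 library. With 1 library left in a group, it is assumed to vary like the other group. Same-numbered libraries did not deviate together (correlation across genes -0.025), no label pairs them, and a replicate block left the calls of the 8 genes as they were, with adjusted p = 0.0188 for Runx3 and 0.0362 for Patz1. A filter on the WT mean was added after seeing the data. Depth limits Cd4, Cd8b1 and Tox, whose values rest on 61 to 196 reads.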
